A study of Mus musculus with 10 samples.

Results

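The NF-kappaB subunits and inhibitors described here are 10 genes, Nfkb1, Nfkb2, Rel, Rela, Relb, Nfkbia, Nfkbie, Nfkbiz, Bcl3 and Tnfaip3, taken by name from a deposited table of 43346 genes. Each name matched 1 row. Nfkbiz was selected on its measured values, because it had stood out between the groups of this same table, so its difference is given as a description with no test. The other 9 were taken as members of the same pathway, also with earlier results of these data known.

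RNA was sequenced from veins draining arteriovenous fistulas of mice. A fistula joins an artery to a vein, here the carotid artery and the jugular vein, and the vein then carries arterial flow. All mice were of a strain given as C57 and were hCX3CR1 knock-in animals (CX3CR1 binds the chemokine fractalkine), and in all of them chronic kidney disease had been induced 28 days before the fistula. The 5 antibody libraries came from mice given 30 mg/kg antibody and the 5 vehicle libraries from mice given an equal volume of vehicle, both into the peritoneum 2 times per week, with the vein taken on day 7. The agent is given as directed at human CX3CR1 in the treatment field but at fractalkine in the title, which the labels leave unsettled. Whether every library is its own animal is not stated, so the p-values measure the spread between these libraries, which may be technical in part.

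NF-kappaB is a family of dimeric transcription factors that drive inflammatory genes. Rela, Rel and Relb encode subunits that carry an activation domain, and Nfkb1 and Nfkb2 encode precursors that are cut to DNA-binding subunits. In resting cells the dimers are held in the cytoplasm by inhibitors of the I-kappaB type, such as the products of Nfkbia and Nfkbie. A kinase complex marks these inhibitors for destruction when a cell meets interleukin-1, tumour necrosis factor or bacterial products. Nfkbiz and Bcl3 encode atypical I-kappaB proteins that act in the nucleus and can assist the transcription of chosen targets, and Tnfaip3 encodes a ubiquitin-editing enzyme that damps the signal. Several of these genes are themselves induced by NF-kappaB, which makes their transcripts a common readout of the pathway in endothelium, fibroblasts and leukocytes of the vessel wall.

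Promoter windows were examined as a description of sequence. Their part in how the genes varied together between libraries, described below, was not tested. RefSeq windows of 250 bases before an annotated start (GRCm38.p6, the mm10 assembly) were found for 7 of the 10 genes: Nfkb2, Rel, Rela, Nfkbia, Nfkbie, Bcl3 and Tnfaip3. The NF-kappaB consensus motif of 10 bases, searched on both strands with overlapping matches merged, was present in 7 of the 10 windows of these genes, which belong to 5 of the 7 genes, against 7.25% of all 32851 windows of that length. The windows of Rela and Bcl3 held no match, and Nfkb1, Relb and Nfkbiz had no window. Of the 17 correlated pairs described below, Rela is in 2 and Bcl3 in 1. Of the genes with a match, Rel is in 2, Nfkb2 and Nfkbie in 4 each, Nfkbia in 5 and Tnfaip3 in 6. Of those without a window, Nfkbiz is in 1, Nfkb1 in 4 and Relb in 5. For the 5 genes with a match, stretches that hold matches are shown 5′ to 3′ on the strand of the gene, with the matches in capitals.
Nfkbia, chr12:55492648-55492696, minus strand: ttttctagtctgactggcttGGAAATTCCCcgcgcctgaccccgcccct
Nfkbie, chr17:45555574-45555623, plus strand: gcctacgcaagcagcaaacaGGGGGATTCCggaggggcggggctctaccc
Rel, chr11:23771031-23771081, minus strand: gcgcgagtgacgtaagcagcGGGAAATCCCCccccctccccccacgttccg
Nfkb2, first of 3 starts, chr19:46304678-46304736, plus strand: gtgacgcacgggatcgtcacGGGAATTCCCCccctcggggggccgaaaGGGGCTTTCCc
Tnfaip3, first of 2 starts, chr10:19015411-19015555, minus strand: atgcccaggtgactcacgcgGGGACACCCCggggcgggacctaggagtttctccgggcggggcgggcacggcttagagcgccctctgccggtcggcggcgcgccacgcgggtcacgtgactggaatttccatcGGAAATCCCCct
The windows of Nfkb2 and Tnfaip3 shown held 2 matches each, a number reached by 0.396% of all windows. The match nearest a start began 29 bases before it in Nfkbia, 106 in Nfkbie, 92 in Rel, 11 in Nfkb2 and 12 in Tnfaip3. A match describes letters in these windows and is not a measured binding site.

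Depth ran between 4282872 and 34271554 reads per library, with the shallowest in antibody replicate 3 and the deepest in vehicle replicate 4. All 10 genes were well above the low-value filter, with between 84 reads (Rel) and 3434 reads (Nfkbia) in a library. Levels are RPKM, reads per kilobase of gene scaled to sequencing depth, divided by a composition factor of 0.841 to 1.13 per library, and are called scaled RPKM. Log2 differences are antibody minus vehicle on the scale of log2(scaled RPKM + 0.5). No marker of endothelium, smooth muscle, fibroblasts or macrophages on the lists used was at 0 in 5 or more libraries, and the summed endothelial markers were at 224 to 269 scaled RPKM in antibody veins and 222 to 263 in vehicle veins. In whole tissue, fewer cells of a type and less RNA per cell cannot be told apart.

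Between antibody and vehicle veins, 9 of the 10 genes had a higher mean log2 level in antibody and Rela a lower one. Without Nfkbiz, whose values chose it, 8 of 9 were higher. None of the 9 genes other than Nfkbiz passed the test across all genes. Their log2 differences were between 0.28 and 0.48 for Bcl3, Nfkbie, Relb, Tnfaip3, Rel and Nfkb2, and between -0.12 and 0.10 for Nfkb1, Nfkbia and Rela. No gene at all passed among the 17859 tested with limma at an adjusted p below 0.05, a share of 0%, and the smallest adjusted p was 0.739. Over the same genes 48.8% had a log2 difference above 0. The median log2 difference was 0.37 over the 10 genes and 0.36 without Nfkbiz, against -0.0053 over all genes tested. Single libraries moved the median of the 9 genes, which was 0.15 when antibody replicate 1 was left out and 0.22 when vehicle replicate 2 was left out. At an unadjusted p below 0.05, 2 of the 9 genes other than Nfkbiz, Bcl3 and Relb, were higher in antibody and 0 were lower, where 3.55% of all genes were higher and 2.98% lower.

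**Figure D1:**
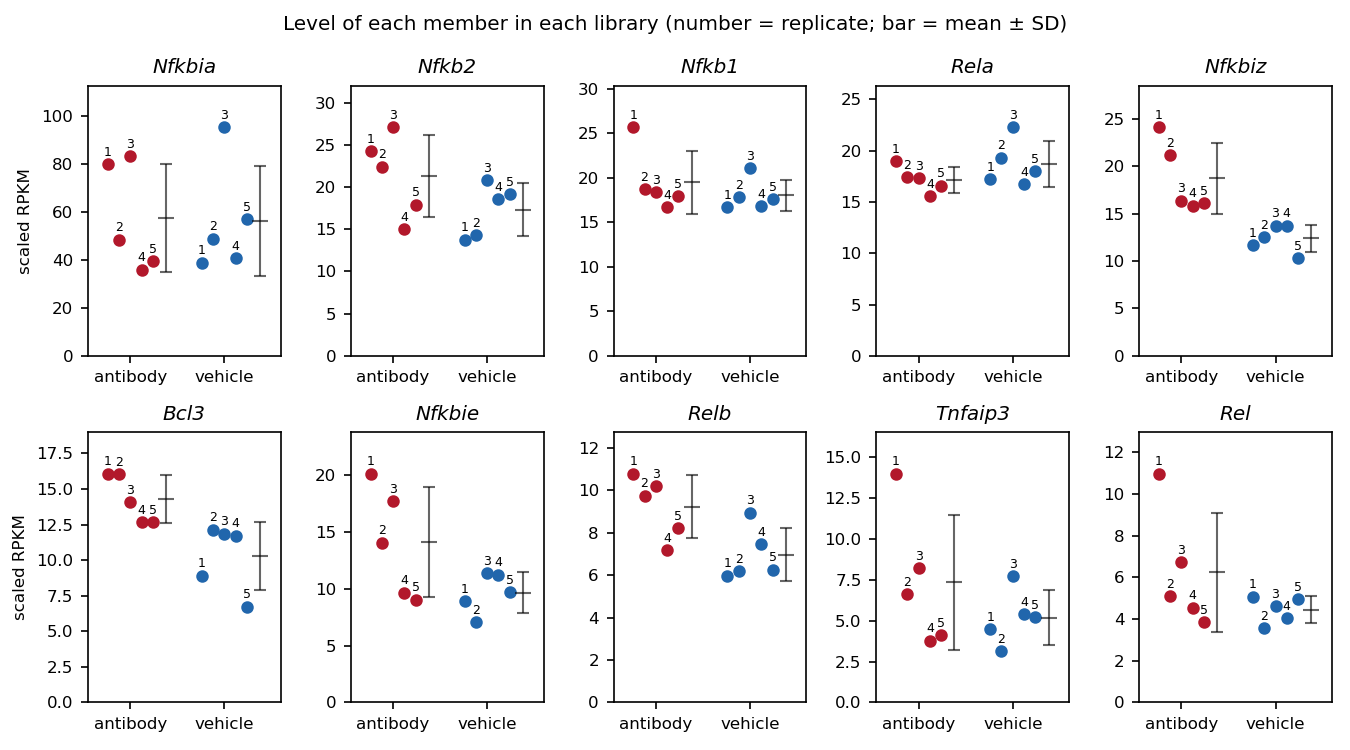
Scaled RPKM (vertical axis, from 0) of the 10 genes in the 5 antibody libraries (left, red) and the 5 vehicle libraries (right, blue), ordered by mean level, with the replicate number above each point and the mean ± SD beside each group. On this scale Bcl3 is higher in every antibody library than in every vehicle library, as are 0.666% of the genes tested, but not with unscaled RPKM. Nfkbiz is also apart between the groups, but its values chose it. Antibody replicate 1 is the highest of the 10 libraries in 7 of the 10 genes.

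Nfkbiz, the gene of I-kappaB-zeta (chromosome 16, 55811375 to 55838899, mm10), was at 24.1, 21.1, 16.4, 15.9 and 16.1 scaled RPKM in antibody replicates 1 to 5, against 11.6, 12.5, 13.7, 13.7 and 10.3 scaled RPKM in vehicle replicates 1 to 5. Antibody replicates 1 and 2 were the highest, and the 3 other antibody libraries lay close together just above the vehicle range. The means were 18.7 ± 3.73 scaled RPKM in antibody and 12.4 ± 1.47 in vehicle veins (SD, n = 5 each), a log2 difference of 0.56 or a fitted 1.48-fold. The nearest libraries were antibody replicate 4 at 15.9 (95% Poisson interval 15.1 to 16.7, from 1529 reads) and vehicle replicate 3 at 13.7 (13.1 to 14.4, from 1574 reads). These intervals cover counting error only. The groups stayed apart with the deposited RPKM unscaled, at 15.05 for the lowest antibody library and 14.0 for the highest vehicle library. Since its values chose it, nothing is read from this separation.

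Bcl3, the other nuclear I-kappaB gene and a partner of the DNA-binding subunits (chromosome 7, 19808462 to 19822770), was at 16.1, 16.0, 14.1, 12.7 and 12.7 scaled RPKM in antibody replicates 1 to 5, against 8.89, 12.1, 11.9, 11.7 and 6.74 scaled RPKM in vehicle replicates 1 to 5. All 5 antibody libraries lay above all 5 vehicle libraries, as in 0.666% of the genes tested. The means were 14.3 ± 1.69 in antibody and 10.3 ± 2.37 in vehicle veins. The log2 difference was 0.48 with an SE of 0.16 (1.09-fold to 1.79-fold as a 95% interval; limma, unadjusted p = 0.0133 and adjusted p = 0.739). The margin was narrow. Antibody replicate 5 at 12.7 (95% Poisson interval 11.4 to 14.0, from 395 reads) and vehicle replicate 2 at 12.1 (11.2 to 13.1, from 648 reads) were within counting error of each other, and with unscaled RPKM the lowest antibody library, at 12.0, was below the highest vehicle library, at 12.5. Without vehicle replicate 5, the lowest library, the log2 difference was 0.34. Bcl3 overlaps 2 predicted genes, the larger of which had 132 reads over all libraries against 5279 for Bcl3.

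Of the cytoplasmic inhibitors, Nfkbie had a higher mean in antibody veins, with 3 libraries above the vehicle range, and Nfkbia had nearly equal means. Nfkbie, the gene of I-kappaB-epsilon (chromosome 17, 45555716 to 45563169), was at 20.2, 14.1, 17.7, 9.67 and 9.04 scaled RPKM in antibody replicates 1 to 5, against 8.94, 7.06, 11.4, 11.3 and 9.72 in vehicle replicates 1 to 5. Antibody replicates 1, 2 and 3 lay above the whole vehicle range and replicates 4 and 5 inside it. The log2 difference was 0.48 (SE 0.23, between 0.982-fold and 1.97-fold at 95%, with limma's adjusted p = 0.739). It was 0.17 when antibody replicates 1 and 3 were left out.

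Nfkbia, the gene of I-kappaB-alpha (chromosome 12, 55489411 to 55492647), was the most abundant of the 10, with a mean level above that of 95.7% of the genes tested. It was at 79.9, 48.5, 83.3, 35.9 and 39.5 scaled RPKM in antibody replicates 1 to 5, against 38.9, 48.9, 95.3, 40.9 and 57.1 in vehicle replicates 1 to 5. The highest library of all was vehicle replicate 3, and both groups spread over more than a 2-fold range. The log2 difference was 0.02 (SE 0.30, between 0.637-fold and 1.62-fold at 95%, with limma's adjusted p = 0.987), and it was -0.12 without antibody replicate 1, -0.13 without antibody replicate 3 and 0.23 without vehicle replicate 3.

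Tnfaip3, whose product removes activating ubiquitin chains from the signalling complex (chromosome 10, 19000910 to 19015657), varied more than any other of the 10 genes, with a 4.49-fold span from lowest to highest library. It was at 14.0, 6.63, 8.21, 3.78 and 4.10 scaled RPKM in antibody replicates 1 to 5, against 4.48, 3.11, 7.70, 5.38 and 5.22 in vehicle replicates 1 to 5. Antibody replicate 1 stood alone at the top, while antibody replicates 4 and 5 lay below 4 of the 5 vehicle libraries. The log2 difference of 0.37 (SE 0.33, limma adjusted p = 0.809) was 0.11 without antibody replicate 1 and -0.073 without antibody replicates 1 and 3.

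The subunits with an activation domain had log2 differences of 0.38 (Relb), 0.36 (Rel) and -0.12 (Rela). Relb, the subunit of the non-canonical pathway (chromosome 7, 19606217 to 19629438), was at 10.8, 9.74, 10.2, 7.18 and 8.20 scaled RPKM in antibody replicates 1 to 5, against 5.98, 6.18, 8.94, 7.45 and 6.26 in vehicle replicates 1 to 5. The 3 highest libraries were antibody replicates 1, 3 and 2, and the 3 lowest were vehicle libraries. Its log2 difference was 0.38 (SE 0.14, between 1.05-fold and 1.62-fold at 95%, with limma's unadjusted p = 0.0207 and adjusted p = 0.739), and 0.26 without antibody replicates 1 and 3.

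Rel, a subunit known mainly from lymphocytes and myeloid cells (chromosome 11, 23741514 to 23770970), was at 10.98, 5.09, 6.72, 4.55 and 3.84 scaled RPKM in antibody replicates 1 to 5, against 5.08, 3.56, 4.63, 4.06 and 4.94 in vehicle replicates 1 to 5. Apart from antibody replicates 1 and 3 the groups covered much the same range. The log2 difference was 0.36 (SE 0.24, limma adjusted p = 0.771), against 0.15 without antibody replicate 1 and 0.019 without antibody replicates 1 and 3.

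Rela, the most widely expressed activating subunit (chromosome 19, 5637483 to 5648130), was at 19.0, 17.4, 17.3, 15.6 and 16.6 scaled RPKM in antibody replicates 1 to 5, against 17.2, 19.3, 22.3, 16.8 and 18.0 in vehicle replicates 1 to 5. It was the steadiest of the 10 genes, with a 1.43-fold span over all libraries. The log2 difference was -0.12 (SE 0.096, between 0.796-fold and 1.07-fold at 95%, with limma's adjusted p = 0.797), and the sign held in each alternative tried, from -0.16 to -0.034.

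The precursor genes each had a higher mean in antibody veins. Nfkb2 (chromosome 19, 46304737 to 46312090) was at 24.2, 22.4, 27.1, 15.04 and 17.9 scaled RPKM in antibody replicates 1 to 5, against 13.8, 14.3, 20.8, 18.5 and 19.2 in vehicle replicates 1 to 5, a log2 difference of 0.28 with an SE of 0.18 (adjusted p = 0.771, limma). Antibody replicates 1, 2 and 3 were above all vehicle libraries. Nfkb1 (chromosome 3, 135584655 to 135691547) was at 25.7, 18.8, 18.4, 16.7 and 18.0 scaled RPKM in antibody replicates 1 to 5, against 16.7, 17.9, 21.1, 16.8 and 17.6 in vehicle replicates 1 to 5. Here antibody replicate 1 alone stood above the vehicle range, and the log2 difference of 0.10 (SE 0.12, limma adjusted p = 0.853) was -0.00096 without it.

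**Figure D2:**
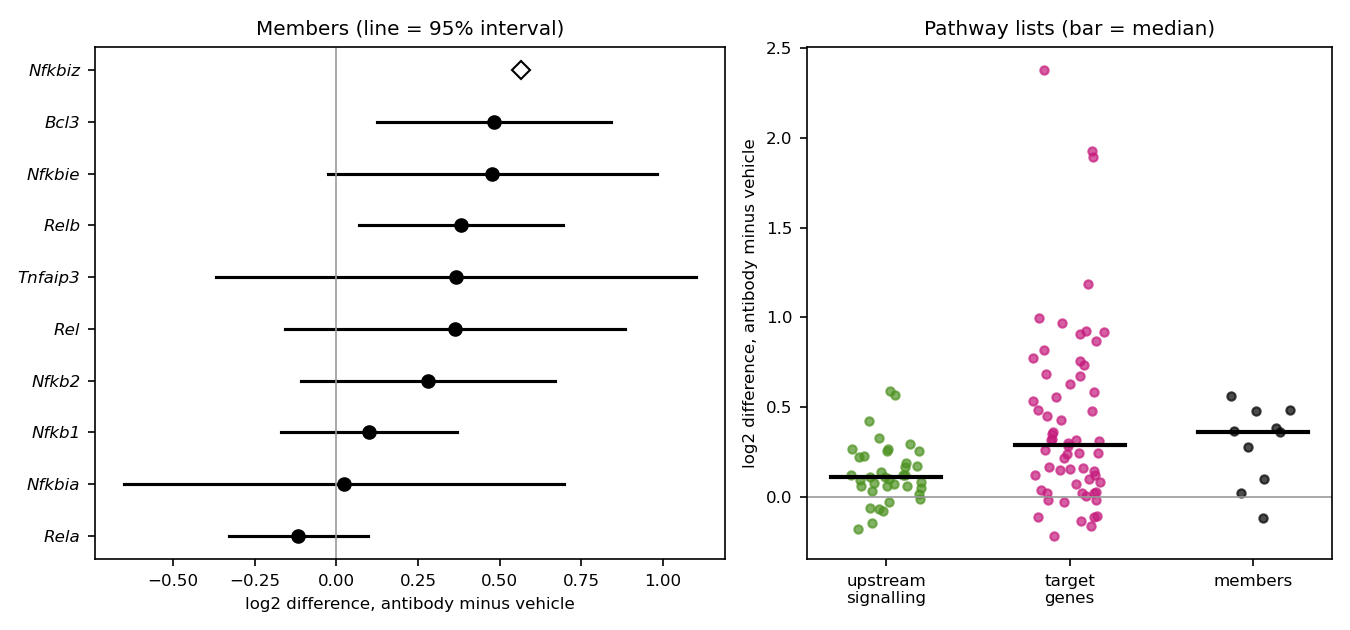
Left, log2 difference of each gene, antibody minus vehicle, with its 95% limma interval, and Nfkbiz as an open symbol without an interval because its values chose it. Right, log2 differences of the tested genes of 2 pathway lists and of the 10 genes, with the median as a bar. The medians are 0.11 for 38 upstream signalling genes, 0.29 for 62 target genes and 0.37 for the 10 genes (0.36 without Nfkbiz).

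The order of levels was led by Nfkbia, followed by Nfkb2, Nfkb1, Rela, Nfkbiz, Bcl3, Nfkbie, Relb, Tnfaip3 and Rel, by the mean log2 level over the 10 libraries. Nfkbia stood at 57.4 ± 22.6 scaled RPKM in antibody and 56.2 ± 23.0 in vehicle veins, and Rel, at the low end, at 6.24 ± 2.85 in antibody and 4.45 ± 0.636 in vehicle veins. Of the 9 neighbouring pairs in this order 4 differed by an exact two-sided sign-flip permutation test over the 10 libraries, adjusted over 9 pairs. The same levels had set the order, so the direction of each mean difference was given beforehand. Nfkbia was above Nfkb2, Nfkbiz above Bcl3 and Nfkbie above Relb in 10 of 10 libraries (adjusted p = 0.00586 each; an unadjusted p of 0.00195 is the smallest this test can give), and Relb was above Tnfaip3 in 9 of 10 (adjusted p = 0.0220). For the other 5 neighbouring pairs, among them Nfkb2, Nfkb1, Rela and Nfkbiz in a row at log2 distances of 0.022 to 0.24, no difference was detected. By group means Rela came below Nfkb2, Nfkb1 and Nfkbiz in antibody veins, but above all of these in vehicle veins. Levels of different genes depend on the gene lengths in the file.

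The libraries of a group differed from each other across the genes. Antibody replicate 1 lay above the vehicle mean in 10 of 10 genes, by a median log2 of 0.63, antibody replicate 3 in 9 of 10 (0.54) and antibody replicate 2 in 8 of 10 (0.38). Antibody replicates 4 and 5 lay above it in 5 of 10 genes each, with medians of -0.042 and -0.036. In the vehicle group replicate 3 was above the vehicle mean in 10 of 10 genes (median 0.25) and replicate 1 in 1 of 10 (-0.12). Without antibody replicates 1 and 3 the median log2 difference over the 9 genes other than Nfkbiz was 0.019. The values of these 9 genes then ranged from -0.37 for Nfkbia to 0.44 for Bcl3 (limma adjusted p = 0.923, against 0.541 to 0.942 over the 20 alternatives).

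Neutrophil markers were set beside this pattern library by library. The summed level of the 13 listed markers was 290, 276, 438, 65.0 and 65.3 scaled RPKM in antibody replicates 1 to 5, against 53.7, 42.2, 113, 178 and 53.5 in vehicle replicates 1 to 5. The 3 antibody libraries high in these markers were those high in Nfkbie, Nfkb2 and Relb. In the vehicle group the sum was highest in replicate 4, which was above the vehicle mean in 6 of 10 genes (median log2 0.10). Replicate 3 had the next highest sum and was above that mean in 10 of 10 genes (0.25). The other vehicle libraries had sums of 42.2 to 53.7 and medians of -0.13 to -0.00068. S100a9 and S100a8 contributed most to the sum, at 203 and 108 scaled RPKM in antibody replicate 3. Of the 10 neutrophil markers tested 9 were higher in antibody and 0 passed at an adjusted p below 0.05, and none of the 13 was at 0 in 5 or more libraries. The granulocyte growth factor receptor gene Csf3r was at 26.8 ± 14.4 scaled RPKM in antibody and 11.4 ± 4.49 in vehicle veins. The part of neutrophil content in the differences of Nfkbie, Nfkb2, Relb, Tnfaip3 and Rel was not tested.

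Other cell markers gave values as follows. Macrophage markers summed to 1415 to 2297 scaled RPKM in antibody and 1742 to 2552 in vehicle veins, with 5 of 13 higher in antibody and the highest sum in vehicle replicate 3, the library highest in Nfkbia and Rela. T and NK cell markers summed to 8.96 to 47.0 in antibody and 6.69 to 15.3 in vehicle veins, with 9 of 10 tested markers higher in antibody, and the highest sum was in antibody replicate 1, which was also the highest library in 7 of the 10 genes described. Fibroblast markers were lower in antibody in 9 of 10 tested (4497 to 5194 against 4584 to 7256 scaled RPKM), and smooth muscle markers in 8 of 9 (300.5 to 583 against 411 to 627). B cell markers summed to 2.46 to 4.39 in antibody and 0.642 to 3.89 in vehicle veins. Skeletal muscle markers, 8 of 9 lower in antibody with a median log2 difference of -0.79, set single libraries apart: their sum was 4004 in antibody replicate 5, 6972 in vehicle replicate 4 and 4341 in vehicle replicate 5, against 384 to 1035 in the other libraries. Kidney markers summed to 3.45 to 62.7 in antibody and 5.68 to 58.04 in vehicle veins. Keratinocyte markers summed to 0.928 to 2.34 in antibody and 1.34 to 2.72 in vehicle veins. Their part in the differences was not tested.

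**Figure D3:**
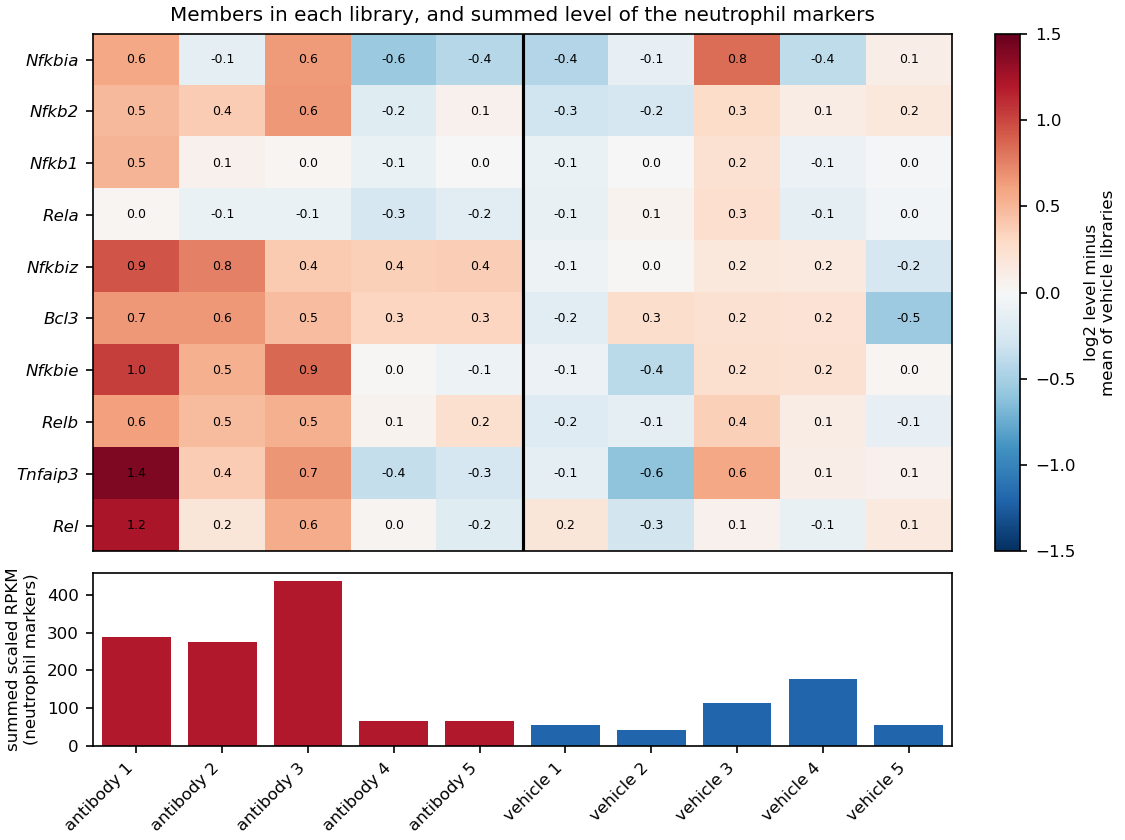
Top, log2 level of each gene in each library minus the mean of the 5 vehicle libraries, with antibody libraries left of the line and vehicle libraries right of it. Bottom, summed scaled RPKM of the neutrophil markers in the same libraries, high in antibody replicates 1, 2 and 3 (276 to 438) and at 65.0 and 65.3 in antibody replicates 4 and 5.

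How the 10 genes varied among themselves was examined after subtracting each group's mean, so that the antibody difference played no part. All 45 pairs had a positive Pearson r over the 10 libraries, with a median of 0.66. By an exact permutation test within groups (14400 arrangements, Benjamini-Hochberg over 45 pairs), 17 pairs passed at an adjusted p below 0.05, and 12 of these also passed by Spearman's rho. For comparison, over all 77407903 pairs of the 12443 protein-coding genes with a mean log2 CPM of at least 1, the median r was 0.0063 and 50.6% of r were positive. An r of at least 0.725, the lowest among the 17, was found in 2.69% of those pairs and in 21 of the 45. Tnfaip3 took part in 6 of the 17, Relb and Nfkbia in 5 each, and Nfkbiz and Bcl3 in 1 each, which was the pair they form. Leaving out the 2 libraries farthest from the median of the first gene of each pair left r between 0.41 and 0.94 in the 17 pairs, and above 0.5 in 15 of them. The pairs share libraries and depth, and their number changed when single libraries were left out. Fewer libraries also leave fewer arrangements, so part of a fall in the number can come from the test itself. The number ranged from 2, without antibody replicate 2, antibody replicate 4 or vehicle replicate 3, to 21, without vehicle replicate 4. It was 7 without antibody replicate 1, 8 without vehicle replicate 1, 9 without antibody replicate 5, 10 without antibody replicate 3 and 0 without antibody replicates 1 and 3.

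The closest pair was Nfkbie and Tnfaip3, whose products both restrain the pathway, with r = 0.95 (permutation p = 0.000278, adjusted p = 0.00625) and rho = 0.96 (permutation p = 0.000833, adjusted p = 0.0177). Without antibody replicates 5 and 1, the libraries farthest from the median in Nfkbie, r was 0.94. Nfkb2 followed Relb, its usual dimer partner, with r = 0.87 (permutation p = 0.00264, adjusted p = 0.0238) and rho = 0.93 (permutation p = 0.00118, adjusted p = 0.0177), and r = 0.77 without antibody replicate 4 and vehicle replicate 1. Rela followed Nfkb1, with which it forms the classical dimer, at r = 0.83 (permutation p = 0.000208, adjusted p = 0.00625) and rho = 0.81 (permutation p = 0.00625, adjusted p = 0.0312), and r = 0.75 without the libraries farthest from the median, vehicle replicate 3 and antibody replicate 1.

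Nfkbiz and Bcl3, the nuclear I-kappaB genes, had r = 0.78 (permutation p = 0.00243, adjusted p = 0.0238) and rho = 0.70 (permutation p = 0.00361, adjusted p = 0.0232), and r = 0.85 without antibody replicate 1 and vehicle replicate 5. Bcl3 had its lowest coefficients with Rel (r = 0.068) and Nfkb2 (r = 0.21), and Nfkbiz with Nfkbia (r = 0.38) and Nfkb2 (r = 0.40). None of these 4 passed, with adjusted permutation p of 0.805, 0.563, 0.344 and 0.344. Outside their own pair, the highest were Nfkbiz with Nfkb1 (r = 0.74, adjusted permutation p = 0.0543) and Bcl3 with Relb (r = 0.58, adjusted permutation p = 0.147). The first of these fell just short of the threshold.

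**Figure D4:**
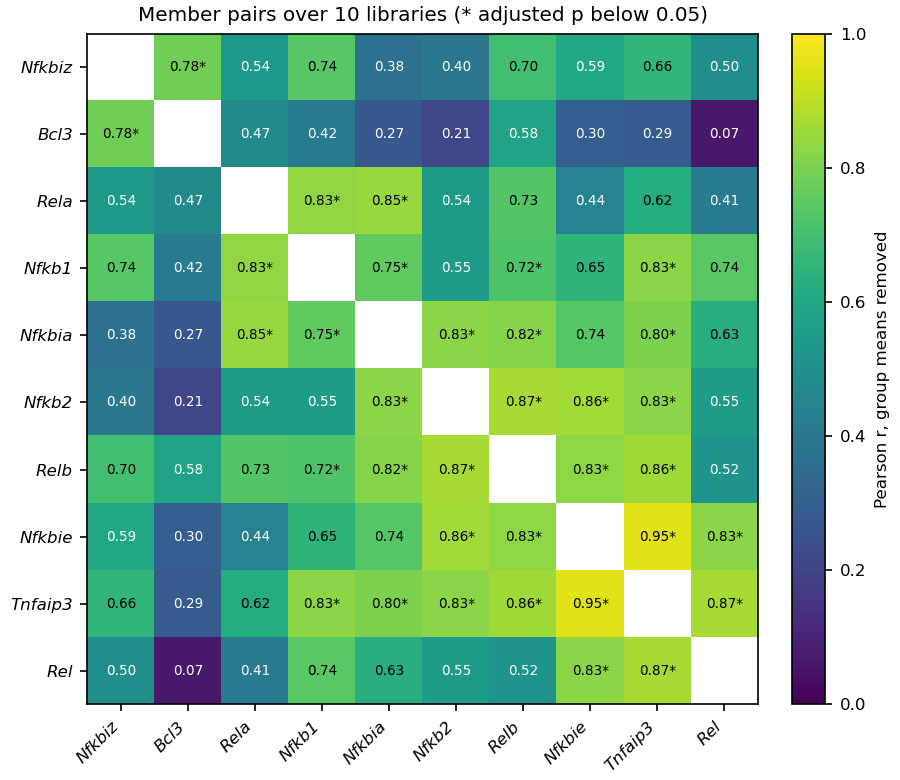
Pearson r of log2 levels for each pair of the 10 genes over the 10 libraries, after removal of group means, with an asterisk for an adjusted permutation p below 0.05. Nfkbiz and Bcl3 carry an asterisk with each other (0.78) and with none of the other genes, and Nfkbie with Tnfaip3 is the highest (0.95).

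Other genes with the most similar library pattern were ranked by the same group-centred r among 12442 protein-coding genes, as a description without a test. For Nfkbiz they were Mrgpre (r = 0.98), Mpzl3 (0.93), the AP-1 subunit gene Junb (0.93), Btbd9 (0.92) and March7 (0.92). Junb, like Selp below, is also on the list of NF-kappaB induced genes. For Relb they were Selp, the gene of the adhesion molecule P-selectin (0.99), the myeloid lectin gene Clec4d (0.97), the ubiquitin-activating enzyme gene Uba1 (0.96), Supt4a (0.96) and Tmem173, the gene of the DNA-sensing adaptor STING (0.95). Selp was at 15.9 ± 6.15 scaled RPKM in antibody and 8.49 ± 3.87 in vehicle veins. The same ranking for the remaining genes, added after their values were seen, put the interleukin-1 decoy receptor gene Il1r2, on the neutrophil list, first for Nfkbie (0.98), ahead of the signalling adaptor gene Traf1 (0.98), which is on the upstream list. It put Mmp25 first for Rel (0.98), Gpr132 first for Tnfaip3 (0.98), ahead of the endotoxin co-receptor gene Cd14 (0.98), and the histone gene H3f3b first for Nfkbia (0.98). First for Nfkb1 was Shoc2 (0.98), for Nfkb2 Supt4a (0.97), for Rela Sfxn3 (0.96) and for Bcl3 the decoy receptor gene Tnfrsf22 (0.95).

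Of the kinases, adaptors and ubiquitin enzymes upstream of NF-kappaB, 38 of 38 listed genes were tested, 31 were higher and 7 lower in antibody, and 0 were called. Their median log2 difference was 0.11, against -0.0053 over all genes, and at an unadjusted p below 0.05, 6 were higher and 0 lower, where all genes gave 3.55% higher and 2.98% lower. The upstream median was 0.089 without antibody replicate 1 and 0.045 without antibody replicates 1 and 3. Ikbkb, the kinase that marks I-kappaB proteins in the canonical pathway, was at 4.79 ± 0.485 scaled RPKM in antibody and 3.91 ± 0.0860 in vehicle veins (log2 difference 0.26 with SE 0.083, adjusted p = 0.739 by limma). Chuk, the second catalytic subunit of that complex, was at 6.80 ± 0.696 in antibody and 5.61 ± 0.495 in vehicle veins. Tab3, an adaptor of the kinase above the complex, was at 2.07 ± 0.214 in antibody and 1.59 ± 0.0907 in vehicle veins, and the related kinase gene Ikbke at 5.08 ± 0.539 in antibody and 4.12 ± 0.291 in vehicle veins. In Ikbkb and Tab3 the 5 antibody libraries lay above every vehicle library, as in 0.666% of the genes tested. These 4 genes were named for the smallest limma p on their list, so nothing is read from that separation.

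Of 66 genes listed as NF-kappaB induced, 62 were tested, 53 were higher and 9 lower in antibody, and 0 were called. The median log2 difference was 0.29, and at an unadjusted p below 0.05, 17 were higher and 0 lower, beside the same 3.55% and 2.98% of all genes. Their summed level was 1330 to 2073 scaled RPKM in antibody and 830 to 1267 in vehicle veins. Abundant genes contribute most to that sum, C3 alone 271 to 748 in antibody and 189 to 364 in vehicle veins. The sum therefore does not describe the list as a whole. Saa3, an acute-phase gene, was at 119 ± 48.4 in antibody and 25.03 ± 17.1 in vehicle veins (limma adjusted p = 0.739). The neutrophil attractant Cxcl1 was at 33.2 ± 17.5 in antibody and 13.9 ± 5.84 in vehicle veins, and Ltb, the lymphotoxin gene of the non-canonical pathway, at 2.303 ± 1.13 in antibody and 0.895 ± 0.437 in vehicle veins. The target median was 0.16 without antibody replicate 1 and 0.12 without antibody replicates 1 and 3.

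Of 12 genes listed as dependent on I-kappaB-zeta in mouse cells, 8 were tested and 0 were called. All 8 were higher in antibody, as were 48.8% of all genes, with a median log2 difference of 0.61. Differences were smallest for Il12b (0.027) and Ptges (0.11), and the genes named below have the smallest limma p. Since the values of Nfkbiz chose it, nothing about Nfkbiz is read from this list. The list shares 9 of its 12 genes with the induced genes above. Il6, a cytokine gene that needs Nfkbiz in mouse macrophages, was at 5.88 ± 3.76 scaled RPKM in antibody and 2.48 ± 1.03 in vehicle veins (log2 difference 0.99, SE 0.36, limma adjusted p = 0.739). Antibody replicate 1 had 12.2 for Il6, and the other antibody libraries 3.01 to 6.18. The chemokine gene Cxcl5 was at 27.2 ± 16.3 in antibody and 7.77 ± 6.62 in vehicle veins. Cxcl5 was uneven over antibody replicates 1 to 5, at 41.7, 30.7, 43.3, 9.96 and 10.3, against a vehicle range of 2.36 to 15.01. Zc3h12a, the gene of an RNase that degrades inflammatory transcripts, was at 6.23 ± 1.64 in antibody and 4.89 ± 0.600 in vehicle veins. Ccl20 and Hamp were at 0 in 5 or more of the 10 libraries.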

How the data were processed

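The authors deposited a single table with a column of RPKM per library, per the file headers. Per the labels' protocols, the TruSeq V2 kit was used on 0.5 µg total RNA. The submitters' processing notes name mm10. Aligner, counter, strand setting and annotation were not given in the sources used here. Whole reads were recovered from the RPKM (100% of values within 0.001 of a whole number), which gave the depth of each library. Trimmed-mean scaling factors were computed from genes with at least 0.513 CPM in 5 libraries and 15 reads in all, which left 17859 genes. Log2(scaled RPKM + 0.5) was fitted with limma 3.58.1 (R 4.3.3), a variance trend and group as the only term, two-sided, adjusted over all genes by Benjamini-Hochberg. It was tested on simulated data. Named list genes are the 4 of smallest limma p per list with a mean log2 CPM of at least 1, and for Nfkbiz and Relb the 5 most correlated genes. The 10 genes, the lists and the tests were chosen with earlier results of these data known. Alternatives covered the pseudocount, scaling, filter, a replicate block, limma-voom, library weights and each library left out. The setting without antibody replicates 1 and 3 was added after seeing the data. No batch is given in the labels.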

Additional observations from a re-analysis of the deposited data

Results flagged for a closer look

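In 2 of the 20 groups of 5 libraries checked, over the 10 genes, a library lay far from the rest of its group, and both concerned Nfkb1. Chance alone flags about 1 in 20 such groups. Antibody replicate 1 stood at 25.7 scaled RPKM, where the other antibody libraries were between 16.7 and 18.8, and vehicle replicate 3 stood at 21.1, where the other vehicle libraries were between 16.7 and 17.9. These are the libraries with the highest Nfkb1 of each group, and each was above the vehicle mean in 10 of the 10 genes described.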

How the results depend on the processing

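Over 20 alternatives, 0 of the 9 genes other than Nfkbiz, 0 target genes and 0 upstream genes were called in any. The count over all genes was 0 except without the low-value filter, where 1 gene was called, none of those 9; limma-voom on the recovered reads called 0, with 1061 at an unadjusted p below 0.05. Nfkbiz, Bcl3, Nfkbie, Relb, Rel and Nfkb2 were higher in antibody and Rela lower in every alternative. Signs turned in 3 genes. Nfkb1 ranged from -0.00096 to 0.15 with single libraries left out and was -0.0089 without antibody replicates 1 and 3. Nfkbia ranged from -0.13 to 0.23 with single libraries left out, was -0.0046 with limma-voom and -0.37 without antibody replicates 1 and 3. Tnfaip3 was -0.073 without antibody replicates 1 and 3, and the median of the 9 genes was then 0.019; with single libraries left out that median was 0.15 (antibody replicate 1) to 0.44. Correlated pairs numbered 2 to 21 with single libraries left out, 0 without antibody replicates 1 and 3, and 16 to 25 under other scalings. Neighbours differing in level were 4 in each alternative except over the 5 vehicle libraries alone, where 0 passed, since 5 libraries cannot give a small enough p. With the replicate number as a block 0 genes were called, with 1252 at an unadjusted p below 0.05 against 1166 without it; same-numbered libraries correlated between -0.095 and 0.35 after removal of group means, so the numbers were not taken as pairs. Scaling set the balance of directions: unscaled RPKM gave 775 genes higher and 216 lower at an unadjusted p below 0.05, against 634 and 532, and moved the median of all genes to 0.063. Depth limits Rel most, with 84 reads in its lowest library.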

Other observations

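The remaining I-kappaB family genes gave a mixed picture. Nfkbid, a further nuclear member of the family that is known from lymphocytes, was at 5.001 ± 2.34 scaled RPKM in antibody and 2.86 ± 1.15 in vehicle veins (log2 difference 0.64, SE 0.36, limma adjusted p = 0.751), with 3 antibody libraries above the highest vehicle library. Nfkbib, a cytoplasmic inhibitor, was at 5.88 ± 1.05 in antibody and 5.92 ± 1.55 in vehicle veins (log2 difference 0.0054, limma adjusted p = 0.995). Nfkbil1, a relative outside the core family, was at 4.04 ± 0.571 in antibody and 4.87 ± 0.537 in vehicle veins (log2 difference -0.24, SE 0.11, limma adjusted p = 0.739). None passed, and the median over the 4 listed relatives was 0.037.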
